A study of Mus musculus with 12 samples.

Results

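9 genes associated with the trophoblast lineage were followed through 12 ATAC-seq peak lists of mouse embryonic stem cells: Cdx2, Elf5, Tfap2c, Gata3, Hand1, Tead4, Krt7, Krt8 and Krt18. They are 9 of 21883 protein-coding genes on chromosomes 1 to 19, X and Y. Every listed peak that overlapped the RefSeq span of a member, extended by 10 kb on each side, was taken. Overlapping peaks of the 12 lists were merged into 64 regions, of 97889 merged regions in the genome. The rule uses the place of a peak and not its strength.

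The cells were embryonic stem cells of a C57BL/6 by CAST cross (BL6xCAST), kept on gelatin-coated plates in medium with LIF and the 2i inhibitors, which holds stem cells undifferentiated. There were 6 libraries from cells with the construct synHPRT1 integrated on chromosome X, which holds sequence of the human HPRT1 gene, and 6 from cells with synHPRT1R, its reversed counterpart, also on chromosome X. Each genotype was represented by 2 clones with 3 replicates each, none of the 12 libraries came from cells without a construct, and the study's question was whether chromatin opens over either sequence, relative to the genome around it. In ATAC-seq, Tn5 transposase inserts adapters into accessible DNA, and peaks mark places where insertions pile up. None of the 9 genes lies on chromosome X.

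Trophoblast cells form the outer layer of the blastocyst and later most of the fetal part of the placenta, and embryonic stem cells derive from the inner cells, which do not normally give rise to them. In outer cells the DNA-binding protein TEAD4, working with the coactivator YAP when Hippo signalling is low, activates the transcription factors CDX2 and GATA3. TFAP2C and ELF5 belong to the factors that maintain trophoblast stem cells, HAND1 acts in the differentiation of trophoblast giant cells, and keratins 7, 8 and 18 build the intermediate filaments of trophoblast and other simple epithelia. Elf5 is also known for a promoter that is methylated in embryonic stem cells.

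The start sites of these genes differ in sequence and in whether a peak was listed within 1 kb of them. The RefSeq promoter table (GRCm38.p6) holds 250 bases before to 50 after a start site, and 7 such windows matched Cdx2, Elf5 (2 start sites), Gata3, Krt7, Krt8 and Krt18. The 200 bases before the start are shown for 5 of them, chosen because they run from a start with a peak in all 12 libraries to starts with none. Each reads 5′ to 3′ on the strand of the gene, and capitals mark every CpG dinucleotide. The Cdx2 stretch is chr5:147307250-147307449 (minus strand), the 2 Elf5 stretches are chr2:103411898-103412097 and chr2:103423868-103424067 (plus strand), Krt18 is chr15:102028016-102028215 and Krt7 is chr15:101412203-101412402 (both plus strand).
Cdx2, peak within 1 kb of the start in 12 libraries: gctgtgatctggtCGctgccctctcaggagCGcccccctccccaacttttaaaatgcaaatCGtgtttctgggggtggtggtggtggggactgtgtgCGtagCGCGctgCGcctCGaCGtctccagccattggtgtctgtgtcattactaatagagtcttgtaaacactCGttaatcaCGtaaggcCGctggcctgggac
Elf5, inner start, 9 libraries: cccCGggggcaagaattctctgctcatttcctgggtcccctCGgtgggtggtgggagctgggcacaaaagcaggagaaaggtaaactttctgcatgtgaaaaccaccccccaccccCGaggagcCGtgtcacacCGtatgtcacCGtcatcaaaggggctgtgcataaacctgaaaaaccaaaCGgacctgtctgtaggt
Krt18, 5 libraries: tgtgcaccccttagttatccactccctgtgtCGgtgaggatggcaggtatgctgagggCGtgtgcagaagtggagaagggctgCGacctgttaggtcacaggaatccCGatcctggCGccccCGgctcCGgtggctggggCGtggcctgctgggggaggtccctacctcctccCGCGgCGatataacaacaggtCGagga
Elf5, outer start, 0 libraries: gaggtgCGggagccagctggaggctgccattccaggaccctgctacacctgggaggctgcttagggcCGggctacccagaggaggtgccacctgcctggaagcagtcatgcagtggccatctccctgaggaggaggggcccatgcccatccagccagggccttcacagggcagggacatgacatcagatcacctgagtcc
Krt7, 0 libraries: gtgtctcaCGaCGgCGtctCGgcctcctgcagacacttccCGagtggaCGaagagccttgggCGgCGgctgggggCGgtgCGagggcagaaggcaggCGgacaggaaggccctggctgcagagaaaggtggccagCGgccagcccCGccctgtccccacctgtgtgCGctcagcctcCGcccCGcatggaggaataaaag

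The full windows held 18 CpG at Cdx2, 10 at the inner and 3 at the outer Elf5 start, 22 at Gata3, 21 at Krt7, 6 at Krt8 and 17 at Krt18, against a median of 7 over the 32851 start sites of the table. Across that table, start sites with a peak within 1 kb in at least 10 libraries had a median of 21 CpG, and those with a peak in 0 libraries had a median of 3. Of the 8701 start sites with 20 or more CpG, 89.2% carried a peak in 10 libraries or more and 1.34% had no peak in any library. Gata3 fell among the former, with a peak within 1 kb in 12 libraries, and Krt7 among the latter. The outer start of Elf5, with 3 CpG, fell in a class of 10310 start sites of which 87.2% had no peak in any library.

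**Figure D1:**
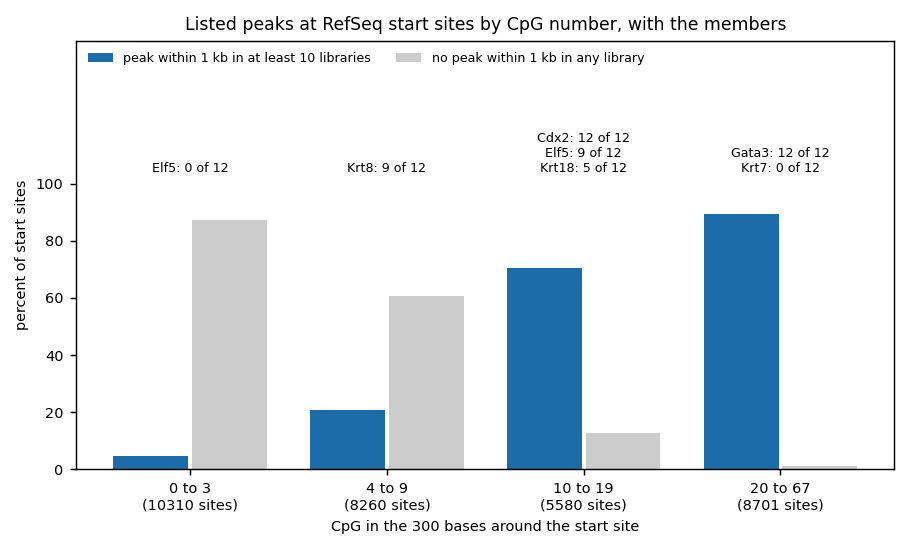
Bars give the percent of RefSeq start sites with a peak within 1 kb in at least 10 of 12 libraries (blue) or in none (grey), by the number of CpG in the 300 bases around the start, and the text above each pair names the members of that class with their number of libraries. The share with a peak climbs from 4.61% to 89.2% over the classes, and Krt7 stands in the highest CpG class with 0 of 12.

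Short motifs were searched on both strands of the same windows as a description of the sequence. TATAAA was present in 1 of the 7 windows, that of Krt8 with 2 matches, and in 13.6% of all windows of the table. GGAATG, a TEAD-type motif, was present only at the outer Elf5 start among the 7, and in 14.7% of all windows. GCCNNNGGC, an AP-2-type motif, was present in 4 of the 7 windows, with 3 matches at Gata3, 2 at Krt7 and 1 each at Cdx2 and Krt18, and in 16.6% of all. GATAAG was present in 2 of the 7, Krt8 and the inner Elf5 start, and in 7.44% of all. CACCC, a KLF-type motif, was present in 6 of the 7 and in 57.5% of all. The 7 windows had 55.3% to 67.3% GC, against a median of 52.7% over the table. The shares over all windows were not matched for base composition, and no enrichment was tested.

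Depth limits what a missing peak means. The libraries listed 38403 to 63704 peaks, and the genome-wide background recovered from the lists was 1.74 to 3.72 reads, averaging 2.67 ± 0.724 for synHPRT1 and 2.39 ± 0.431 for synHPRT1R (SD, n = 6 each). Between 23 and 44 of the 64 regions were listed in a library, the most in synHPRT1 clone 1 replicate 3, which had a background of 3.16 reads, and the fewest in synHPRT1 clone 2 replicate 3, which had 1.74 reads. A region absent from a list was not detected at that depth, and the part of depth in differences between libraries was not tested. The 12 lists were separate: no list shared more than 76 identical intervals with another. The labels do not say whether the replicates of a clone were separate cultures, and the p-values then speak only to the spread among these libraries, part of which may be technical.

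Of the 64 regions, 14 (21.9%) were listed in all 12 libraries, beside 23.8% of all merged regions. A further 3 (4.69%) were listed in 10 or 11, 32 (50.0%) in 2 to 9 and 15 (23.4%) in 1, beside 8.76%, 40.4% and 27.1% of all regions. The 14 regions in every library were spread over Tead4 with 6, Cdx2 with 4, and Tfap2c and Gata3 with 2 each. Elf5, Hand1, Krt7, Krt8 and Krt18 had none. By place, 4 of the 14 lay within 1 kb of an annotated end of the member gene, 7 inside the gene farther from its ends and 3 outside it. With peaks kept only where the −log10 q-value was 5 or more, the 64 regions became 37 and the 14 became 6, and the 14 became 4 when a library had to cover 50% of the merged region. Strand was not given for Tfap2c, Hand1 and Tead4, so for these genes an end can be the start or the 3′ end.

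**Figure D2:**
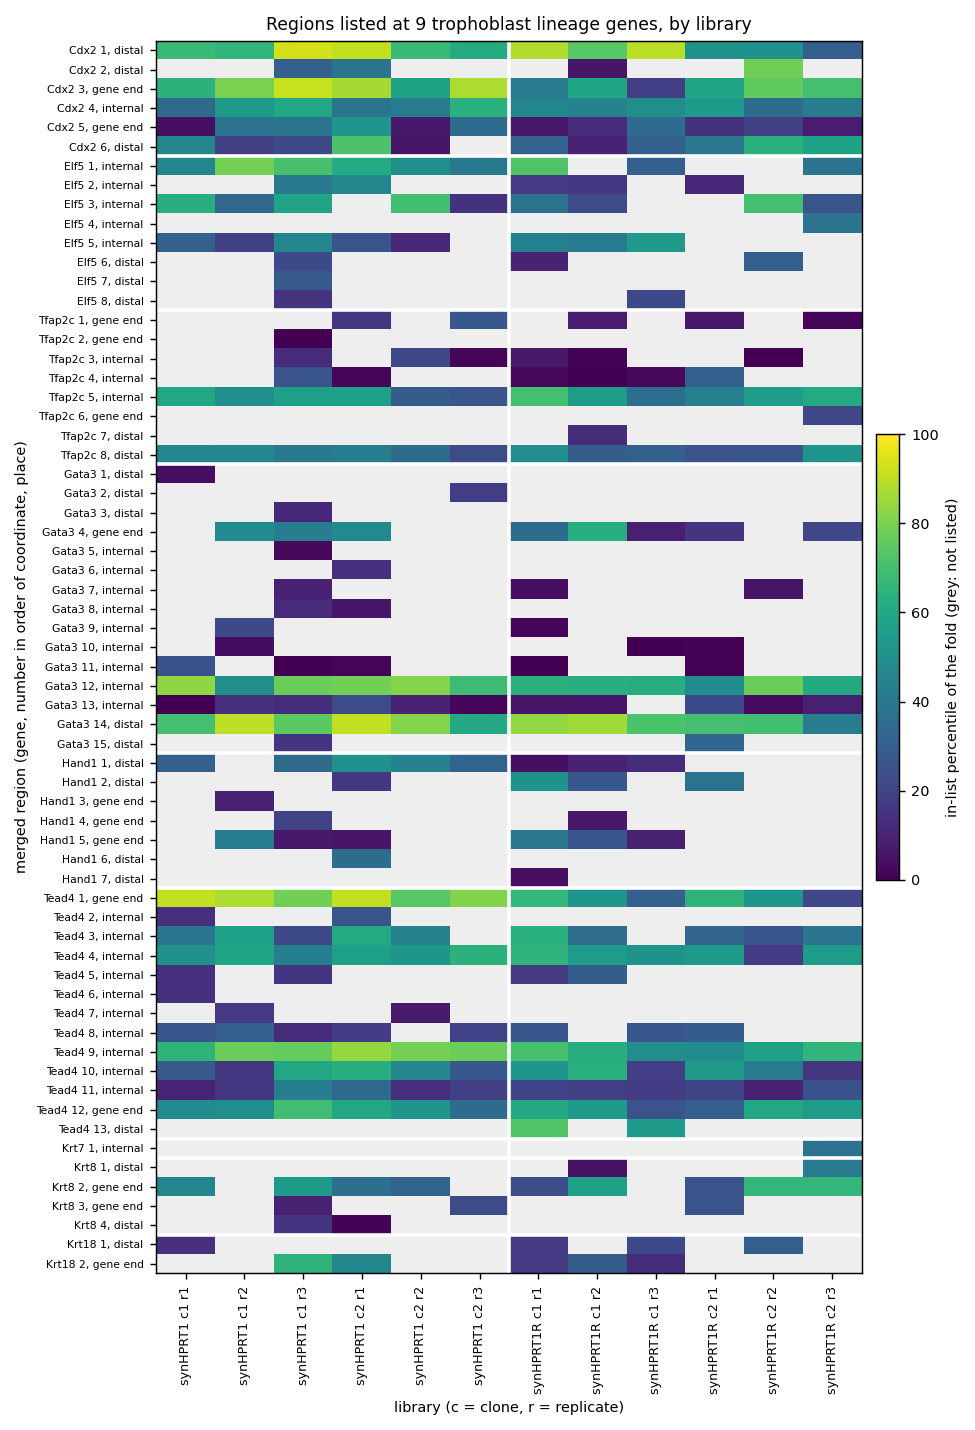
Each row is 1 of the 64 merged regions, numbered along the coordinate within its gene, and each column is a library. Colour gives the percent of that library's peaks with a lower fold, and grey marks a region that was not listed. Rows filled across all 12 columns belong to Cdx2, Tfap2c, Gata3 and Tead4.

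The strength of a peak was read in these ways. The fold that the authors' peak caller gives was turned into a percentile within its own list, the percent of that list's peaks with a lower fold. The number of reads over the summit was recovered from the fold and the p-value, and divided by the genome-wide background of the library. The 14 regions in every library had a median percentile of 55.1, ranging from 16.6 to 73.3, while the 23285 such regions of the genome had a median of 74.2 with quartiles of 59.5 and 86.8. Ranked by the p-value instead, the 14 regions had a median percentile of 64.6, against 74.6 over the genome. Their local background was a median of 1.76 times the genome-wide background, and as much as 3.03 times. A higher local background lowers the fold but not the number of reads. It was not computed for the 23285 regions, and its part in the lower percentiles was not tested. The 50 regions in 1 to 11 libraries had a median percentile of 18.5 and a median summit of 5.33 times the background, against 9.93 times for the 14.

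**Figure D3:**
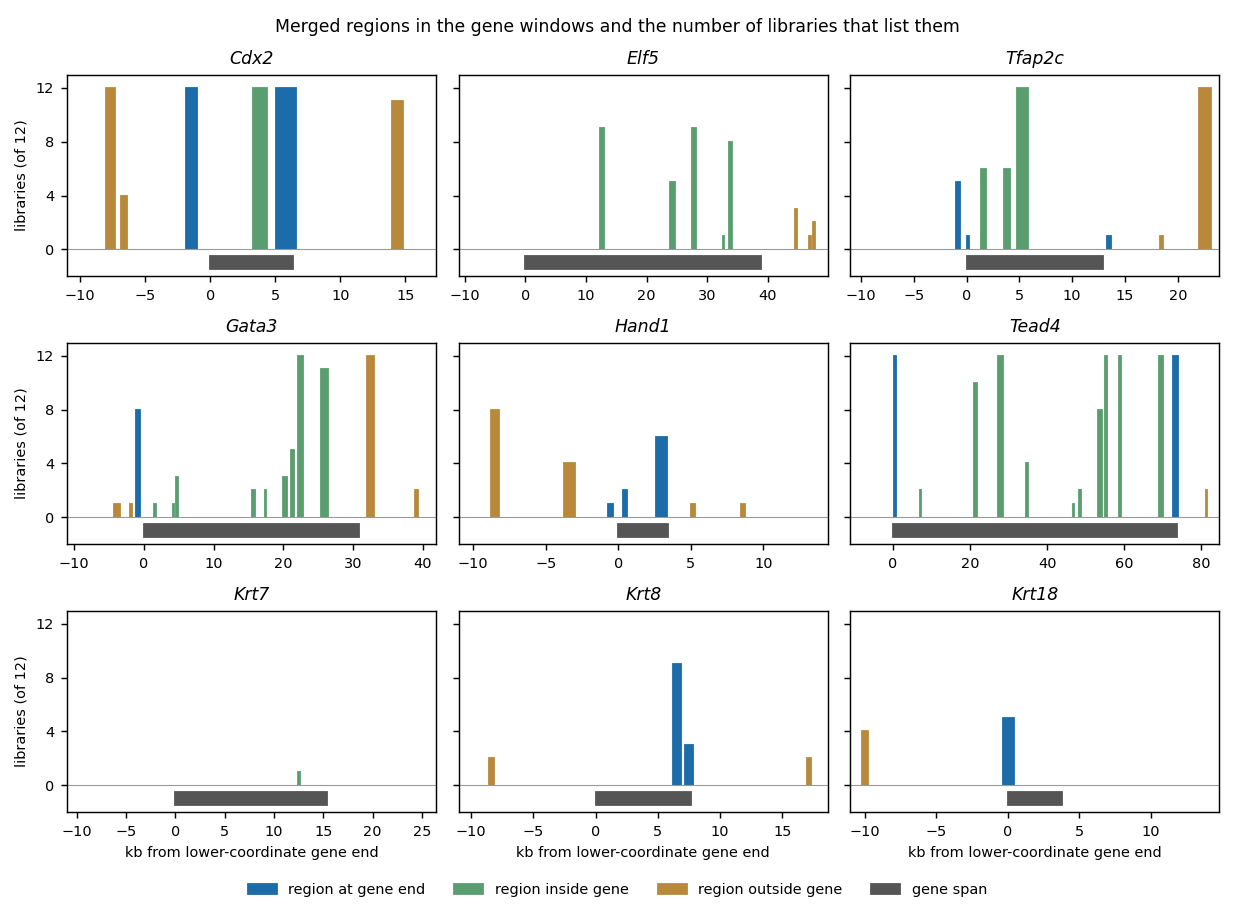
For each gene the grey bar is its RefSeq span and each coloured bar a merged region, drawn at its distance in kb from the lower-coordinate end of the gene, with height giving the number of libraries that listed it. Blue regions lie within 1 kb of a gene end, green inside the gene and ochre outside. Cdx2 and Tead4 reach 12 libraries at a gene end, while Elf5 and Krt7 have no region there.

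Cdx2 (chr5:147300900-147307249, minus strand), the factor that specifies trophectoderm, had 6 regions and 4 to 6 peaks in every library. Its start site lay within a merged region of 1542 bp, chr5:147305971-147307512, listed in all 12 libraries, with a peak over the promoter window in 9. That region stood low in most lists: its percentile was 3.93 at the lowest, 16.6 at the median and 52.4 at the highest. Its summit held a median of 20.5 reads, 8.64 times the genome-wide background, and the local background there was 1.89 times the genome-wide one. By percentile of the fold, the 2 strongest regions of Cdx2 lay elsewhere. One, chr5:147299079-147299907, began 993 bp beyond the 3′ end of the gene and had a median percentile of 67.5 and a summit of 10.4 times the background. The other, chr5:147292890-147293613, lay 7287 bp beyond that end, inside the long noncoding gene Gm35112, with a median percentile of 67.5 and 8.79 times the background. A region inside the gene, 1989 bp from the start, had a median percentile of 45.3 but the highest Cdx2 summit, 11.5 times the background. The remaining frequent region, chr5:147314905-147315730, was listed in 11 libraries and lay at an end of the neighbouring gene Urad.

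Gata3 (chr2:9857078-9887953, minus strand), a zinc finger factor activated beside Cdx2, had 15 regions, the most of the 9 genes. The listed start at position 9878600 lies inside the span. The highest summit of all 64 regions was at chr2:9879201-9879885, 601 bp upstream of that start, with a median of 50.5 reads, 20.8 times the genome-wide background. The local background there was 3.03 times the genome-wide one, and the median percentile by fold was 66.3. The strongest Gata3 region by percentile, chr2:9889013-9890088, had a median of 73.3 and lay 1060 bp beyond the higher end of Gata3, within the noncoding gene 9230102O04Rik and near its end. Another, chr2:9882474-9883436, was listed in 11 libraries with a median percentile of 8.66 and overlapped the noncoding genes 4930412O13Rik and 9230102O04Rik. The peak within 1 kb of a Gata3 span end, in 8 libraries, was at the 3′ end, 513 bp beyond it. A further 11 regions were listed in 1 to 5 libraries each, so most of the regions at Gata3 were peaks of few libraries. The library means were 5.83 ± 2.48 and 5.00 ± 1.55 peaks in synHPRT1 and synHPRT1R (SD, n = 6 each).

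Tead4 (chr6:128227143-128300813), the DNA-binding factor at the top of the outer-cell programme, had 13 regions, and 6 of them were listed in all 12 libraries, the most of the 9 genes. Both of its ends carried a region in every library. At the higher end, chr6:128299831-128301095 had a median percentile of 53.1 and a summit of 13.4 times the background. At the lower end, chr6:128227430-128228025 had a median percentile of 70.3 and 8.36 times the background. The highest Tead4 summit was inside the gene, at chr6:128282109-128282731, with 14.4 times the background and a median percentile of 68.4. Another 3 internal regions in every library had median percentiles of 54.6, 43.8 and 18.8, and chr6:128248226-128248923 was listed in 10 libraries at a median of 38.4.

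Tfap2c (chr2:172545678-172558622), an AP-2 factor used both by trophoblast stem cells and by germ cells, had 8 regions and 2 to 6 peaks in each library. Its stable regions were not at its ends. The internal region chr2:172550452-172551452 was listed in all 12 libraries with a median percentile of 55.6 and a summit of 11.7 times the background. The other, chr2:172567691-172568802, lay 9069 bp beyond the higher end, with a median percentile of 37.8 and 6.30 times the background. Gene-end peaks were listed in 6 libraries, 3 per genotype, and the commonest of the 3 regions there had a median percentile of 7.80. The 6 libraries became 1 with the stricter q-value and 2 with lists of equal length.

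**Figure D4:**
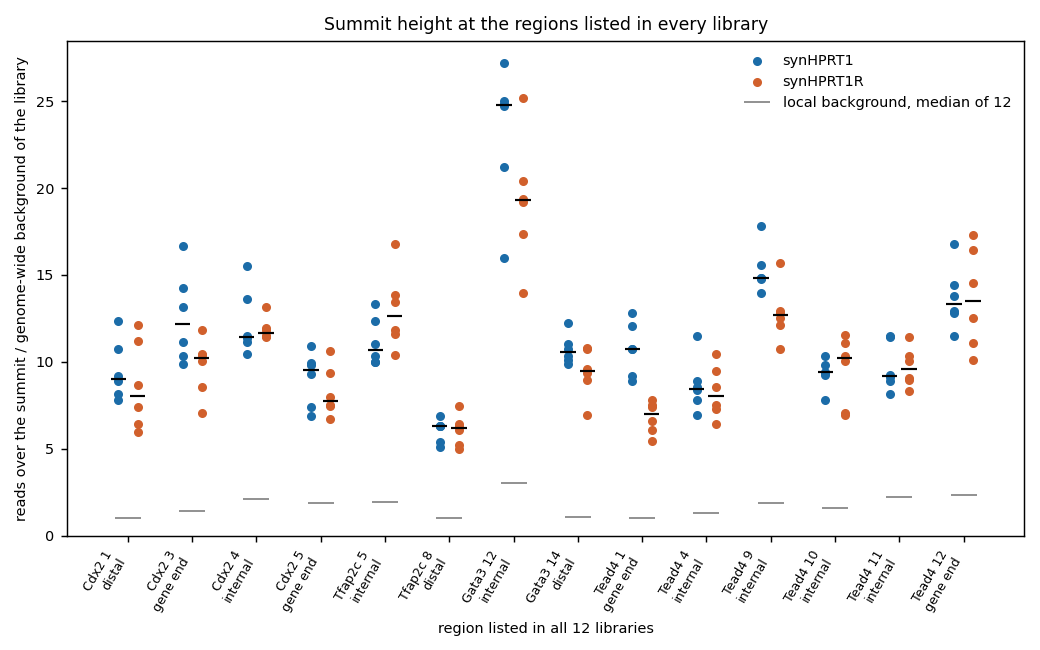
Points give the reads over the summit divided by the library's genome-wide background for the 14 regions listed in all 12 libraries, in blue for synHPRT1 and orange for synHPRT1R (6 libraries each). Black bars mark group medians, and grey bars the median local background on the same scale. Gata3 region 12 is the highest. The genotypes are fully apart at Tead4 region 1, which was picked out after its values were seen. The share of all regions with genotypes apart in this measure was not computed.

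Elf5 (chr2:103412098-103450989, plus strand), an ETS factor of trophoblast stem cells, had 8 regions, none within 1 kb of either end and none in all 12 libraries. Each library nevertheless listed 1 to 7 peaks in its window. The 2 commonest regions were in 9 libraries each. One, chr2:103424404-103425065, began 336 bp downstream of the inner start shown above, with a median percentile of 49.8 and a median summit of 18 reads, 6.91 times the background. It was listed in 6 of 6 synHPRT1 and 3 of 6 synHPRT1R libraries (two-sided Fisher's exact p = 0.182). The other, chr2:103439571-103440185, lay deeper in the gene with a median percentile of 37.8. Within 1 kb of the outer start, whose sequence is also shown above, no library listed a peak.

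Hand1 (chr11:57828713-57832147), the giant cell factor, had 7 regions and a peak in its window in 10 libraries. The commonest, chr11:57819951-57820465, was in 8 libraries and lay 8248 bp below the lower end. At its ends a peak was listed in 6 libraries, each of them in chr11:57831346-57832100, which also lies within 1 kb of an end of the noncoding gene Gm32915. With peaks of −log10 q-value 5 or more these 6 libraries became 2, and with lists of equal length 3. The region with the highest median percentile, at 35.2, was chr11:57833752-57834005 and came from 1 library. Within synHPRT1R, clone 1 listed 4, 4 and 2 peaks in the Hand1 window and clone 2 listed 1, 0 and 0, so the clones did not overlap. The same held for Tead4, with 10, 9 and 9 peaks against 8, 7 and 7, and for none of the other 7 members. Over all genes whose number of peaks varied among these 6 libraries, 2.95% had synHPRT1R clones without overlap, 398 with more peaks in clone 1 and 56 with more in clone 2. The backgrounds of the synHPRT1R libraries were 2.68, 2.88 and 1.98 reads in clone 1 and 2.79, 2.03 and 2.01 in clone 2, and with 3 libraries per clone the smallest exact permutation p is 0.1.

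The 3 keratins had 1 to 4 regions each, none of them in more than 9 libraries. Krt8 (chr15:101996711-102004342, minus strand), the type II keratin that pairs with keratin 18, had 4 regions. The commonest, chr15:102002960-102003553, lay 789 bp inside the gene from the start and was listed in 9 libraries, 4 synHPRT1 and 5 synHPRT1R, with a median percentile of 46.1 and 6.34 times the background. Krt18 (chr15:102028216-102032026, plus strand), the type I partner, had a region over its start, chr15:102027913-102028622, in 5 libraries. Among the synHPRT1 libraries these were clone 1 replicate 3 and clone 2 replicate 1, with summits of 23 and 20 reads, which have the highest backgrounds of all 12 libraries, 3.16 and 3.72 reads. Among the synHPRT1R libraries they were the 3 of clone 1, with 12, 15 and 10 reads, and none of clone 2. In synHPRT1R the backgrounds were 2.68, 2.88 and 1.98 reads in clone 1 and 2.79, 2.03 and 2.01 in clone 2. The part of depth in which libraries listed the Krt18 region was not tested. The share of all regions with such a split between clones was not computed. Krt7 (chr15:101412403-101427806, plus strand), a type II keratin of simple epithelia, had a single region, chr15:101424844-101425068, 12441 bp inside the gene, listed in synHPRT1R clone 2 replicate 3 alone with 13 reads over its summit.

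Counted by gene, 2 of the 9 members (22.2%), Cdx2 and Tead4, had a peak within 1 kb of an annotated end in at least 10 libraries, beside 55.0% of all protein-coding genes. Under the stricter q-value this count was 1, since Cdx2 had such a peak in 9 libraries, and with gene ends taken as 2 kb it was 4. Another 5 had one in 5 to 9 libraries, and Elf5 and Krt7 in none. Of all 21883 protein-coding genes, 2930 had one in 1 to 9 libraries and 6921 in none. By the listed start sites, which are available for 6 members, Cdx2 and Gata3 had a peak within 1 kb in all 12 libraries, Elf5 and Krt8 in 9, Krt18 in 5 and Krt7 in 0. Start sites in at least 10 libraries were thus 2 of 6 members (33.3%), beside 56.9% of the 17491 genes with a listed start. The windows held a median of 1.45 merged regions per 10 kb, beside 0.604 over all genes, yet 4 of 9 windows (44.4%) held a region common to all libraries, beside 65.1%. These shares describe a short list, and no test was made of the list.

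Other genes set the 9 in context. Of 20 further trophoblast genes, 9 had a gene-end peak in at least 10 libraries. The early regulators Eomes, Ets2, Fgfr2 and Id2 were at 12 of 12, and Esx1, Gcm1 and Tpbpa were among those at 0. Esx1 and Gcm1 nevertheless had a peak elsewhere in their windows in all 12 libraries, whereas Tpbpa, a marker of spongiotrophoblast, had none in any. Of 17 Hippo and TEAD genes, 15 reached at least 10 libraries, among them Tead1, Yap1, Wwtr1 and Lats1 at 12, and none was at 0. Of 16 paralogs of the members, 9 reached at least 10, with Cdx1, Elf1, Elf2 and Elf3 at 12 and Gata1 and Gata4 at 0. Of the other 46 keratin genes, 4 reached at least 10 (Krt10 and Krt42 at 12, Krt17 and Krt88 at 10). Another 31 were at 0, including Krt24 and Krt25, and 23 had no region in their windows at all. Of all 21883 protein-coding genes, 6921 were at 0 and 3285 had no region in their windows. The keratin genes lie in clusters, so neighbouring windows can share peaks.

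The labelled cell type was checked on markers in the same way. Of 10 pluripotency genes, 8 had a gene-end peak in at least 10 libraries, with Nanog, Sox2, Zfp42 and Klf4 at 12 and none at 0. Pou5f1 was at 6 and Esrrb at 1, although a peak lay within 1 kb of a listed start of Esrrb in 12 libraries. A peak anywhere in the window in at least 10 libraries was present for all 10, as for all 6 primitive endoderm genes, 5 of 8 fibroblast genes and 73.8% of all protein-coding genes. Of 6 primitive endoderm genes, 3 reached at least 10, with Sox17 at 12 and Gata4 and Dab2 at 0. Of 8 fibroblast genes, 2 reached at least 10, Col1a1 and Twist2, both at 11. None reached 12, and Col3a1, Postn and Lum were at 0. A peak marks accessible DNA and not expression, and in bulk cells a peak in a few cells cannot be told apart from a weak peak in all.

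No member differed between the genotypes in its number of peaks after adjustment. The number of peaks per window was compared with a two-sided exact permutation test over the 924 splits of 6 libraries against 6, with Benjamini-Hochberg adjustment over 17051 genes. All 9 adjusted p-values were 1, and the unadjusted ones ran from 0.448 to 1. Over all genes 0 of 17051 (0%) passed the adjusted threshold of 0.05 and 204 had an unadjusted p under 0.05, 188 with more peaks in synHPRT1 and 16 in synHPRT1R. Cdx2 averaged 5.5 ± 0.837 peaks per synHPRT1 library and 5.5 ± 0.548 per synHPRT1R library, and Tead4 averaged 9.17 ± 1.60 and 8.33 ± 1.21 (SD, n = 6 each). For Tfap2c the means were 3.33 ± 1.21 and 4.00 ± 1.10, and for Elf5 3.5 ± 1.76 and 2.83 ± 1.33. The groups overlapped for all 9 genes. With 6 libraries against 6, the smallest possible exact permutation p is 0.0021645. An adjusted value under 0.05 would need many genes at that floor together, so the count of 0 says little about any gene alone. With 2 clones per genotype as the independent units, an exact test cannot go below p = 0.333.

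Region by region the result was the same. Of the 64 regions, 50 were listed in 1 to 11 libraries and could be tested, the smallest Fisher's exact p was 0.182 at the inner start region of Elf5, and every adjusted p was 1. Over the genome 0 of 74604 regions (0%) passed after adjustment, and 164 had an unadjusted p under 0.05, 123 more often listed in synHPRT1 and 41 in synHPRT1R. No member region differed between the genotypes by 4 or more libraries.

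The rank of the strongest peak in the window could be compared for the 5 members listed in all 12 libraries. For Tead4 the mean percentile was 84.6 ± 5.77 over the synHPRT1 libraries and 63.5 ± 6.44 over the synHPRT1R libraries (SD, n = 6 each), and the groups did not overlap (two-sided exact permutation p = 0.0021645, which is the floor of this design). After adjustment over 14867 genes the exact permutation p was 0.766, so the difference did not pass, and 0 of the 14867 genes (0%) did. Without adjustment 754 genes (5.07%) had a p under 0.05, 580 of them higher in synHPRT1 and 174 in synHPRT1R, so Tead4 differed in the commoner direction. Genotypes without overlap were found for 42 genes (0.283%). The other 4 members overlapped between the genotypes: Cdx2 had 81.2 ± 11.5 and 76.6 ± 11.4, Gata3 82.0 ± 8.45 and 75.1 ± 9.41, Elf5 64.1 ± 13.1 and 47.9 ± 23.0, and Tfap2c 47.6 ± 13.3 and 53.8 ± 12.4, with unadjusted exact permutation p-values from 0.171 to 0.502.

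The strongest Tead4 peak was in the lower-end region in 5 of 6 synHPRT1 libraries and 1 of 6 synHPRT1R libraries, and in the others it was in 4 different regions of the window. The lower end is described here after its values were seen. At chr6:128227430-128228025, inside the lower end of the gene, the synHPRT1 libraries had percentiles of 90.9, 87.6 and 78.7 (clone 1) and of 90.8, 74.2 and 80.9 (clone 2). In synHPRT1R they were 66.4, 52.0 and 30.8 (clone 1) and 65.2, 52.4 and 21.3 (clone 2). All 6 synHPRT1 values were above all 6 synHPRT1R values. Over the 23285 regions listed in every library, 0.292% had genotypes without overlap in percentile, 54 higher in synHPRT1 and 14 in synHPRT1R, and none of the other 13 member regions did. In the same peaks, reads over the summit, as a multiple of the library's genome-wide background, were 8.89 to 12.8 in synHPRT1 and 5.47 to 7.83 in synHPRT1R; this multiple comes from the same fold and p-value and is no separate observation. The Tead4 region with the highest summit, chr6:128282109-128282731, had 13.9 to 17.8 and 10.8 to 15.7, which overlap, and the region at the higher end had 11.5 to 16.8 and 10.1 to 17.3.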

How the data were processed

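ATAC-seq was performed on 12 libraries of mouse embryonic stem cells, grouped by their titles, which also number the replicates. The tools MACS2 2.1.0, Bowtie2 2.2.9, bcl2fastq 2.20, deepTools 3.5.0 and SAMtools 1.9 and the builds mm10 and GRCm38 stand in the submitters' processing notes, without their roles. For settings such as a Tn5 shift, duplicate removal or a blacklist, nothing is stated in the sources used here. There is 1 deposited peak list per sample, so peaks were not called on pooled samples. Without a header, the lists follow the narrowPeak layout, in which the deposited values are an integer score, the fold (ratio of summit pileup to local background), the −log10 p-value and the −log10 q-value. The lowest deposited −log10 q-value was 1.30 or a little above in each list. Those values are the authors', and served to rank or filter peaks within a list and to recover reads and backgrounds.

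Gene spans came from a RefSeq table of GRCm38.p6, which gives no strand or exons, so exonic and intronic places were not determined. Start sites and strand came from a RefSeq promoter table where it holds the gene. Peaks overlapping by at least 1 bp were merged over the 12 lists. Percentiles count the peaks of a list with a lower fold, ties counted as 0.5. The genome-wide background of a library came from the spacing of its 12 commonest folds. The summit reads and local background of each peak were solved from the fold, taken as (reads + 1)/(background + 1), and its Poisson p-value, within 0.001; this solved 99.7% to 100% of 1000 checked peaks per library. Intervals for reads were not computed, since duplicates cannot be told from separate fragments.

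Peak number and rank were compared with exact permutation tests and presence with Fisher's exact test, each with Benjamini-Hochberg adjustment over all genes or regions, in Python 3.11.15 with NumPy 2.4.6, pandas 2.3.3 and SciPy 1.17.1. The tests were first run on simulated data. Named regions are those in at least 10 libraries, the one with the highest median percentile of each member, and those that differ by 4 or more libraries between genotypes; other genes are those at 12 or 0 libraries, at most 4 each, in list order. A gene that the rule names is not reported here. A few further regions and genes were named after their values were seen. The members and gene lists were chosen with earlier results of these data known. Alternatives were a −log10 q-value of at least 5, lists of equal length, windows of 5 and 20 kb, gene ends of 500 bp and 2 kb, 50% coverage, rank by p-value, a replicate block and leaving out each library.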

Additional observations from a re-analysis of the deposited data

Results flagged for a closer look

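Each genotype's 6 libraries were searched for a library whose value stood far from the other 5, over 28 groups, and 3 had one. For values without ties chance flags about 1 in 20 groups; for small tied counts such as these the rate was not determined. In synHPRT1, clone 1 replicate 3 listed 7 peaks in the Elf5 window where the other libraries listed 2 to 3; this library also listed the most member regions of all, 44 of 64. In synHPRT1R, clone 1 replicate 2 listed 6 peaks in the Tfap2c window where the others listed 3 to 4. In synHPRT1R, clone 2 replicate 3 listed 1 peak in the Krt7 window where the others listed 0. The genome-wide backgrounds of these libraries were 3.16, 2.88 and 2.01 reads, and the part of depth in these values was not tested.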

How the results depend on the processing

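The counts of members, of genes and of regions past the adjusted threshold between the genotypes stayed at 0 under all 15 to 18 alternatives run for each test. With so few libraries, passing would need many genes or regions at the smallest possible p together. The counts of 0 were thus close to fixed by the design, and their stability says little. The Tead4 difference in the percentile of the strongest peak, 21.2 and higher in synHPRT1, was 19.2 to 23.0 when 1 library was left out. It was 33.7 with the stricter q-value, 12.4 when ranked by p-value and 14.6 in windows of 20 kb, and adjusted exact permutation p ran from 0.473 to 1 over all alternatives. Permuting within the replicate block kept the difference of 21.2, with an unadjusted exact permutation p of 0.00926 and an adjusted p of 0.991, and the counts past the threshold stayed at 0. Over regions in every library, correlations of the deviations from the clone mean showed no sign that equal replicate numbers were paired. Between genotypes they ran from -0.0547 to 0.0729 in 12 same-numbered pairs and from -0.0715 to 0.0535 in 24 other pairs. Between the clones of a genotype they ran from -0.0815 to 0.00655 in 6 same-numbered pairs and from -0.0620 to 0.105 in 12 other pairs.

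When weaker peaks were dropped (−log10 q-value under 5), the 64 regions became 37, those in every library went from 14 to 6, and members with a gene-end peak in at least 10 libraries from 2 to 1. When presence required 50% of a region to be covered, regions in every library went from 14 to 4. With gene ends of 2 kb, members with a gene-end peak rose from 2 to 4. With 500 bp, Gata3 fell from 8 libraries to 0, Krt8 from 9 to 3 and Tfap2c from 6 to 2. With the stricter q-value, gene-end peaks were in 5 libraries at Gata3, 2 at Hand1, 2 at Krt18 and 1 at Tfap2c, and with lists of equal length in 3 at Hand1 and 2 at Tfap2c. The stricter q-value, the coverage rule and the wider gene end admit fewer or more peaks by construction. Leaving out 1 library gave 60 to 64 regions, 14 to 15 of them in every remaining library, and 2 members with a gene-end peak.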
